A study of Mus musculus with 24 samples.

Results

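The 32 genes described here encode the enzymes and regulators that mouse cells use to make sterols and fatty acids. They were taken by symbol from the 47967 genes of a count table of total RNA from mouse embryonic fibroblasts (MEFs), and all 32 passed the filter on low counts that left 17576 genes for testing. The sterol arm holds 20 genes. Its 17 enzymes run along the pathway as Hmgcs1, Mvk, Pmvk, Mvd, Idi1, Fdps, Fdft1, Sqle, Lss, Cyp51, Tm7sf2, Msmo1, Nsdhl, Hsd17b7, Ebp, Sc5d and Dhcr7, and the regulators Insig1 and Srebf2 and the sterol carrier Stard4 complete it. The fatty acid arm holds 12 genes, namely Acly, Me1, Acaca, Acacb, Fasn, Elovl5, Elovl6, Scd1, Scd2, Fads1, Fads2 and the regulator Srebf1.

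The study put retroviral cocktails of cardiac reprogramming factors into fibroblasts of C57BL/6 embryos and took RNA 2 or 7 days later. There were 8 groups of 3 libraries each: AGHMT, GHMT, GMT and mock at day 7, and AGHMT, GHMT, GMT and mock at day 2. In this field G, M and T stand for Gata4, Mef2c and Tbx5, H for Hand2 and A for Akt1, and the labels give the letters only. All groups, mock included, were grown in fibroblast medium and then moved to an induction medium that contained serum, B-27 and insulin-selenium-transferrin, and the labels do not say what the mock cells received. Each library is bulk RNA of a culture, so fewer cells of a type and less RNA per cell cannot be told apart. The labels do not say whether the 3 libraries of a group are separate cultures; the p-values cover only the spread among them, technical or not.

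Cholesterol is built from acetyl-CoA through mevalonate, squalene and lanosterol, and fatty acids are built from the same acetyl-CoA through malonyl-CoA, then elongated and desaturated. When membrane sterol is scarce, the transcription factor SREBP2, the product of Srebf2, is released by proteolysis and switches on most enzyme genes of the sterol arm, while SREBP1, the product of Srebf1, acts mainly on the fatty acid arm together with the oxysterol receptors LXR and with insulin signalling through AKT. Insig1 encodes the membrane protein that holds the SREBPs back when sterol is plentiful. The heart makes little fat from sugar and burns fatty acids, and malonyl-CoA made by the ACACB enzyme at the mitochondrial surface restrains their import for oxidation.

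SREBP binds sterol regulatory elements beside the CCAAT boxes of its partner NF-Y, so the proximal promoters of 3 members are printed from RefSeq. Hmgcs1 and Mvd were lower with every cocktail on both days, and Hsd17b7 was higher. Each sequence starts 250 bases before the RefSeq start and runs 5′ to 3′ on the gene's strand, and the Hsd17b7 run of 214 bases stops where the annotated gene begins. Capitals mark CCAAT or its complement ATTGG and, in Hmgcs1, a match to the SREBP element TCACNCCAC.
Hmgcs1, GRCm38.p6 chr13:119690101-119690350, plus strand: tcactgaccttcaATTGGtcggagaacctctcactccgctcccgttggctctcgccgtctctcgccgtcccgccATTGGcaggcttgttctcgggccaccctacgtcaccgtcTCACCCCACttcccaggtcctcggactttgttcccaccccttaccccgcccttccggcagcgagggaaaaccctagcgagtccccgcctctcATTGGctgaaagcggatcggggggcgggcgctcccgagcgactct
Mvd, GRCm38.p6 chr8:122443423-122443672, minus strand: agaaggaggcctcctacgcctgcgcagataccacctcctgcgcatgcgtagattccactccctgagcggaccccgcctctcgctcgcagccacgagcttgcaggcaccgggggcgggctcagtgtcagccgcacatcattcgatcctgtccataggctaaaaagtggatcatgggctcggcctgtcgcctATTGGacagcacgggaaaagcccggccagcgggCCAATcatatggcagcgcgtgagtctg
Hsd17b7, GRCm38.p6 chr1:169969242-169969455, minus strand: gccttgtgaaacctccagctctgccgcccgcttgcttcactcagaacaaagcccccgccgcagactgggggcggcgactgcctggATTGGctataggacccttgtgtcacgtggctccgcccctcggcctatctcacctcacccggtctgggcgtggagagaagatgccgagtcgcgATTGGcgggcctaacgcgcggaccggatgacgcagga
Of the 32 genes, 25 had a RefSeq promoter entry and 7 had none. All motifs were read on both strands of the 250 bases, and 9 entries of 7 genes lie wholly inside the annotated gene. CCAAT was found in 16 of the 16 sterol members with an entry and in 5 of the 9 fatty acid members, against 39.5% of 17492 protein-coding genes. Counted by entry, since a gene can have several starts, it was in 16 of 19 sterol entries and 6 of 12 fatty acid entries, against 33.8% of all 32851 entries. TCACNCCAC was found in 1 member, Hmgcs1, where it shared no base with a CCAAT box, against 1.2% of protein-coding genes. The E-box CACGTG was in 4 of the 16 sterol members and 1 of the 9 fatty acid members, against 7.61% of protein-coding genes. Of letters bound by the cocktail factors' families, AGATAA for GATA factors was in 0 of these 25 members (10.3% of protein-coding genes), AGGTGT for T-box factors in 1 sterol member (12.8%), and TATTTA for MEF2 in 1 sterol member (13.1%). These motifs were chosen with the expression results known, and a match is a description of letters in this window.

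Library totals ran from 29345957 to 37495178 counted reads, and levels are given as CPM, a share of the TMM-scaled library. Gata4 and Hand2 followed the labels on both days. At day 7 Gata4 averaged 633 ± 5.18 CPM with AGHMT, 1142 ± 85.9 with GHMT, 1022 ± 28.1 with GMT and 1.399 ± 0.0953 in mock (SD, n = 3 each). Hand2 averaged 1125 ± 10.9 CPM with AGHMT, 978 ± 42.1 with GHMT, 3.23 ± 0.199 with GMT and 7.58 ± 0.411 in mock. Akt1, which fibroblasts already express, averaged 451 ± 7.20 CPM with AGHMT, 382 ± 1.72 with GHMT and 385 ± 22.5 in mock, a log2 fold change of 0.24 ± 0.04 (SE) over GHMT. AGHMT replicate 3 of day 2 lies furthest from its group over all tested genes, at a root mean square log2 distance of 0.396 against 0.247 to 0.314 for the other 23 libraries. Arm counts and several values that involve it are therefore also given without it. Of the member calls in AGHMT against mock at day 2, only that of Pmvk was lost without it.

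Markers of other cells and of cell division moved with the groups, and their part in the results was not tested. All 12 markers of dividing cells were lower with every cocktail on both days; their summed level at day 7 was 226 to 267 CPM with AGHMT, 266 to 297 with GHMT and 238 to 278 with GMT, against 768 to 786 in mock. At day 2 it was 385 to 396, 432 to 475 and 414 to 429 with the same cocktails, against 989 to 1116 in mock. The 11 fibroblast markers summed to 13994 to 14723 CPM in AGHMT and 64242 to 69813 in mock libraries at day 7, and 7 to 10 of them were lower in each cocktail comparison. All 9 cardiomyocyte markers were higher with every cocktail, summing to 17945 to 18578 CPM with AGHMT, against 20.3 to 23.9 in mock at day 7. The 10 macrophage markers summed to 38.8 to 54.3 CPM with AGHMT, 54.8 to 57.5 with GHMT and 51.3 to 63.5 with GMT, against 350.4 to 508 in mock at day 7, and to 12.1 to 15.4 with AGHMT, 28.7 to 35.0 with GHMT, 36.1 to 45.2 with GMT and 48.7 to 49.7 in mock at day 2. Adipocytes express the fatty acid arm strongly; their 10 markers, of which 9 were tested, summed to 158 to 167 CPM with AGHMT and 379 to 410.1 in mock at day 7, and to 139.7 to 162 with AGHMT and 60.8 to 79.6 in mock at day 2. Lpl, the lipoprotein lipase gene, carries the day 7 sum, at 94.6 ± 4.16 CPM with AGHMT and 362 ± 17.6 in mock; of the 9 tested markers 7 were higher and 2 lower with each cocktail at day 7, with a median log2 fold change of 1.62 in AGHMT. None of the 6 hepatocyte markers passed the filter; their sums were 0 to 0.22 CPM. The 5 steroidogenic markers, of which 4 were tested, summed to 4.87 to 19.52 CPM.

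Per kilobase of exon, in CPM per kilobase (RPKM), the arms spanned a wide range of levels in mock cells. At day 2 the desaturase gene Scd2 was the highest of the 32, at 183 ± 8.22 RPKM, followed by Hmgcs1 at 55.3 ± 1.45, Acly at 54.2 ± 0.863 and Scd1 at 45.1 ± 1.54 (SD, n = 3 each). Hmgcs1 and Acly did not differ beyond their spread. The lowest were Acacb at 0.376 ± 0.0646, Tm7sf2 at 1.44 ± 0.148 and Fdps at 2.47 ± 0.0484 RPKM. A same-strand gene shares 12.1% of the Tm7sf2 exon bases and 26.7% of those of Fdps, so these levels are uncertain. The whole fatty acid arm summed to 3723 to 3883 CPM with AGHMT and 2189 to 2299 in mock at day 7, and to 4524 to 5128 with AGHMT and 2461 to 2559 in mock at day 2. The sterol arm summed to 1534 to 1605 CPM with AGHMT, 1430.4 to 1474 with GHMT, 1701 to 1730.1 with GMT and 1395 to 1472 in mock at day 7, and to 1683 to 1798 with AGHMT, 1452 to 1511 with GHMT, 1329.7 to 1361 with GMT and 1464 to 1516 in mock at day 2. These sums are carried by few genes, Scd2 and Scd1 in the fatty acid arm.

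Against the mock of the same day, genes of the sterol arm were more often lower than higher with AGHMT and GHMT, and the fatty acid arm had about as many genes higher as lower. The 3 cocktails of a day share their mock libraries, so their counts are not independent of each other. In AGHMT at day 7, 5 of the 20 sterol genes were higher and 11 lower, and of the 12 fatty acid genes 5 were higher and 5 lower, beside 38.6% of all genes higher and 38.1% lower (76.8% together) at an adjusted p under 0.05. The median log2 fold change was -0.19 in the sterol arm and -0.09 in the fatty acid arm. In GHMT at day 7 the sterol arm had 4 higher and 10 lower and the fatty acid arm 5 and 6, beside 36.3% of all genes higher and 35.6% lower (72.0% together), with medians of -0.18 and -0.16. GMT at day 7 had 8 sterol genes higher and 5 lower, and 4 and 4 fatty acid genes, beside 37.1% of all genes higher and 36.0% lower (73.0% together), with a median of 0.05 in each arm. Those counts are near the background in both arms, as are the fatty acid counts of AGHMT and GHMT at day 7, and without GMT replicate 3 of that day 3 sterol genes were lower.

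At day 2 more sterol genes were lower than higher with all 3 cocktails, while the arm's summed CPM was above mock with AGHMT. In AGHMT 5 sterol genes were higher and 12 lower, with a median of -0.34, and 6 and 6 fatty acid genes, with a median of 0.18, beside 38.0% of all genes higher and 37.4% lower (75.4% together). Without AGHMT replicate 3 the sterol arm had 4 higher and 12 lower and the fatty acid arm 6 and 6. In GHMT the counts were 5 and 12 in the sterol arm and 4 and 7 in the fatty acid arm, beside 34.9% of all genes higher and 33.3% lower (68.2% together), with medians of -0.42 and -0.33. In GMT they were 4 and 11, and 5 and 6, beside 33.9% of all genes higher and 33.1% lower (67.1% together), with medians of -0.13 and -0.12. Over all tested genes the median lay between -0.017 and 0.012 in every comparison made. Across the 6 mock comparisons 4 sterol genes were lower each time, namely Hmgcs1, Mvd, Fdps and Dhcr7, and 1 was higher each time, Hsd17b7. In the fatty acid arm Acly, Acaca, Fads1 and Fads2 were lower each time and Acacb, Scd1 and Srebf1 higher each time. Of all genes tested 15.9% were lower and 16.4% higher in all 6 comparisons. The Fdps call in GMT at day 7 and 2 of the Acly calls were lost in other settings, given with those genes.

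**Figure D1:**
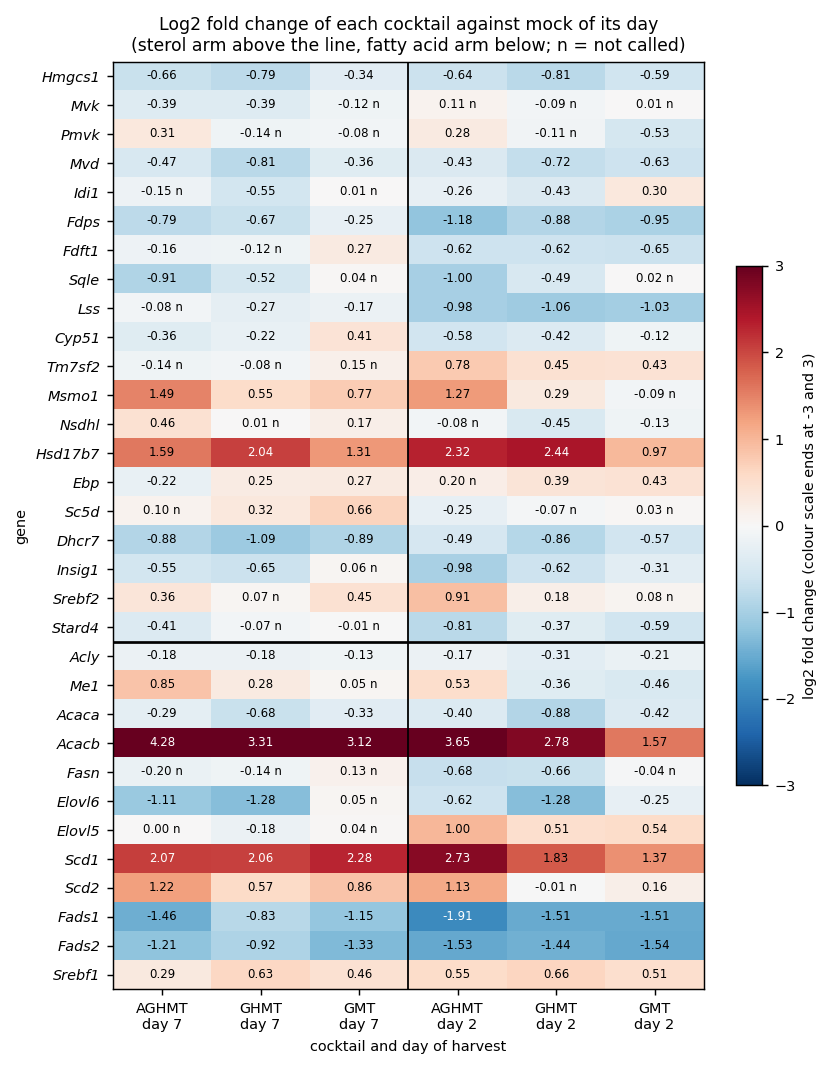
Log2 fold changes of the 32 genes (rows, sterol arm above and fatty acid arm below) in the 6 comparisons of a cocktail with the mock of the same day (columns). Acacb, Scd1 and Hsd17b7 are higher in all 6 columns, and Fads1, Fads2 and Hmgcs1 are lower in all 6.

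Of the mevalonate genes more were lower than higher with each cocktail. Of the 6 genes that lead to farnesyl diphosphate, 4 were lower and 1 higher in AGHMT, 5 lower and 0 higher in GHMT, and 3 lower and 0 higher in GMT at day 7; at day 2 these counts were 4 and 1 in AGHMT, 4 and 0 in GHMT, and 4 and 1 in GMT. Those counts stand beside 33.1% to 38.1% of all genes lower and 33.9% to 38.6% higher over the 6 comparisons. The 3 lower in GMT at day 7 are near that share. Hmgcs1 makes HMG-CoA and lies at chr13:119690379-119708260 (GRCm38, as all gene positions here). Hmgcs1 and Sqle were given in full after their values were seen, outside the rule that chose the others. Hmgcs1 at day 7 had 166, 167 and 160.3 CPM in AGHMT, 152, 147 and 151 in GHMT, 203, 202 and 208 in GMT, and 262, 245 and 271 in mock. The day 2 libraries had 156, 152 and 180.4 CPM in AGHMT, 146, 143 and 144 in GHMT, 167, 169 and 172 in GMT, and 247, 255 and 259.8 in mock. No cocktail library reached the lowest mock library of its day, and GMT lay between the other cocktails and mock at day 7. The log2 fold changes were -0.66 ± 0.05 (AGHMT), -0.79 ± 0.05 (GHMT) and -0.34 ± 0.05 (GMT) at day 7 (SE; adjusted p = 8.53e-12, 2.70e-13 and 8.78e-07), and -0.64 ± 0.05 (AGHMT), -0.81 ± 0.05 (GHMT) and -0.59 ± 0.05 (GMT) at day 2. Without AGHMT replicate 3 of day 2 its value there was -0.72. Of the Hmgcs1 exon sequence 12.1% overlaps an antisense gene, and whether reads were counted by strand is not given in the sources used here.

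Fdps, the synthase of farnesyl diphosphate at chr3:89093588-89101959, was a low gene that fell in every cocktail. At day 7 it had 5.07, 4.70 and 4.79 CPM in AGHMT, 4.85, 5.66 and 5.31 in GHMT, 7.65, 6.85 and 6.72 in GMT, and 8.45, 7.90 and 8.91 in mock. At day 2 it had 4.38, 3.85 and 5.40 CPM in AGHMT, 5.88, 5.23 and 5.76 in GHMT, 5.56, 5.47 and 5.11 in GMT, and 10.3, 10.2 and 10.6 in mock. Cocktail and mock libraries did not overlap on either day. Its log2 fold changes were -0.79 ± 0.09 (AGHMT), -0.67 ± 0.09 (GHMT) and -0.25 ± 0.09 (GMT) at day 7 and -1.18 ± 0.09 (AGHMT), -0.88 ± 0.09 (GHMT) and -0.95 ± 0.09 (GMT) at day 2 (adjusted p = 0.0129 for GMT at day 7, and 0.0542 without mock replicate 3 or 0.0601 without GMT replicate 3 of that day). Without AGHMT replicate 3 the AGHMT value of Fdps at day 2 was -1.33. A same-strand neighbour covers 26.7% of the Fdps exons, so reads of the 2 genes can be confused and the level is uncertain.

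Mvd, which decarboxylates mevalonate diphosphate, fell by 0.36 to 0.81 on the log2 scale over the 6 comparisons. In AGHMT at day 2 it was -0.43, and -0.57 without replicate 3. Of the kinase genes upstream of it, Mvk fell in AGHMT (-0.39 ± 0.07) and GHMT (-0.39 ± 0.07) at day 7 and passed in no other mock comparison. Pmvk rose with AGHMT at day 7 (0.31 ± 0.11) and fell with GMT at day 2 (-0.53 ± 0.11); the day 7 call was lost without AGHMT replicate 1 (adjusted p = 0.0572) or mock replicate 3 (0.0614). Its rise with AGHMT at day 2 (0.28 ± 0.11, adjusted p = 0.0193) rests on replicate 3, at 28.2 CPM against 19.2 and 18.1 in the other two, and was 0.05 without it (adjusted p = 0.505). Idi1, the isomerase of isopentenyl diphosphate, fell with GHMT on both days (-0.55 and -0.43) and rose with GMT at day 2 (0.30). It also fell with AGHMT at day 2, where its value was -0.31 without replicate 3. Of its exons 9.22% overlap a gene on the other strand.

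Of the genes from squalene to lanosterol, Sqle differed between the cocktails. Sqle encodes squalene epoxidase, a rate-limiting step of the pathway, and lies at chr15:59315077-59331192. Its day 7 libraries held 62.1, 61.8 and 60.5 CPM in AGHMT, 77.2, 82.7 and 80.6 in GHMT, 124, 115 and 116 in GMT, and 116, 114 and 115 in mock. Those of day 2 held 57.5, 55.2 and 62.2 CPM in AGHMT, 84.6, 81.2 and 83.9 in GHMT, 119, 118 and 117 in GMT, and 115, 116 and 119 in mock. On both days AGHMT was lowest, GHMT next, and GMT overlapped or adjoined mock. Against mock the log2 fold changes were -0.91 ± 0.04 (AGHMT), -0.52 ± 0.04 (GHMT) and 0.04 ± 0.04 (GMT) at day 7 and -0.999 ± 0.04 (AGHMT), -0.49 ± 0.04 (GHMT) and 0.02 ± 0.04 (GMT) at day 2. The 2 GMT values did not pass (adjusted p = 0.407 and 0.752), with 95% intervals of -0.05 to 0.13 and -0.07 to 0.10.

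Lss, the cyclase that folds squalene epoxide into lanosterol, lies at chr10:76531588-76557138 and was lower at day 2. It stood at 62.9, 57.4 and 59.5 CPM in AGHMT, 54.2, 48.3 and 54.9 in GHMT, 55.3, 57.7 and 55.3 in GMT, and 63.9, 63.5 and 62.2 in mock at day 7. At day 2 the values were 45.4, 40.9 and 37.4 CPM in AGHMT, 42.7, 37.9 and 36.4 in GHMT, 38.6, 39.1 and 42.4 in GMT, and 79.5, 83.8 and 81.3 in mock. All cocktail libraries of day 2 lay below every mock library, at close to the same level in the 3 cocktails. Against mock the log2 fold changes were -0.08 ± 0.06 (AGHMT), -0.27 ± 0.06 (GHMT) and -0.17 ± 0.06 (GMT) at day 7, where the AGHMT value did not pass (adjusted p = 0.274) and the GMT call was lost without GMT replicate 1 (0.0536) or 3 (0.0538), and -0.98 ± 0.06 (AGHMT), -1.06 ± 0.06 (GHMT) and -1.03 ± 0.06 (GMT) at day 2. Fdft1, the squalene synthase gene, fell at day 2 in AGHMT, GHMT and GMT (-0.62, -0.62 and -0.65) but rose with GMT at day 7 (0.27). Of its exons 18.3% overlap Ctsb, a lysosomal protease gene on the other strand, so its values are uncertain too.

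**Figure D2:**
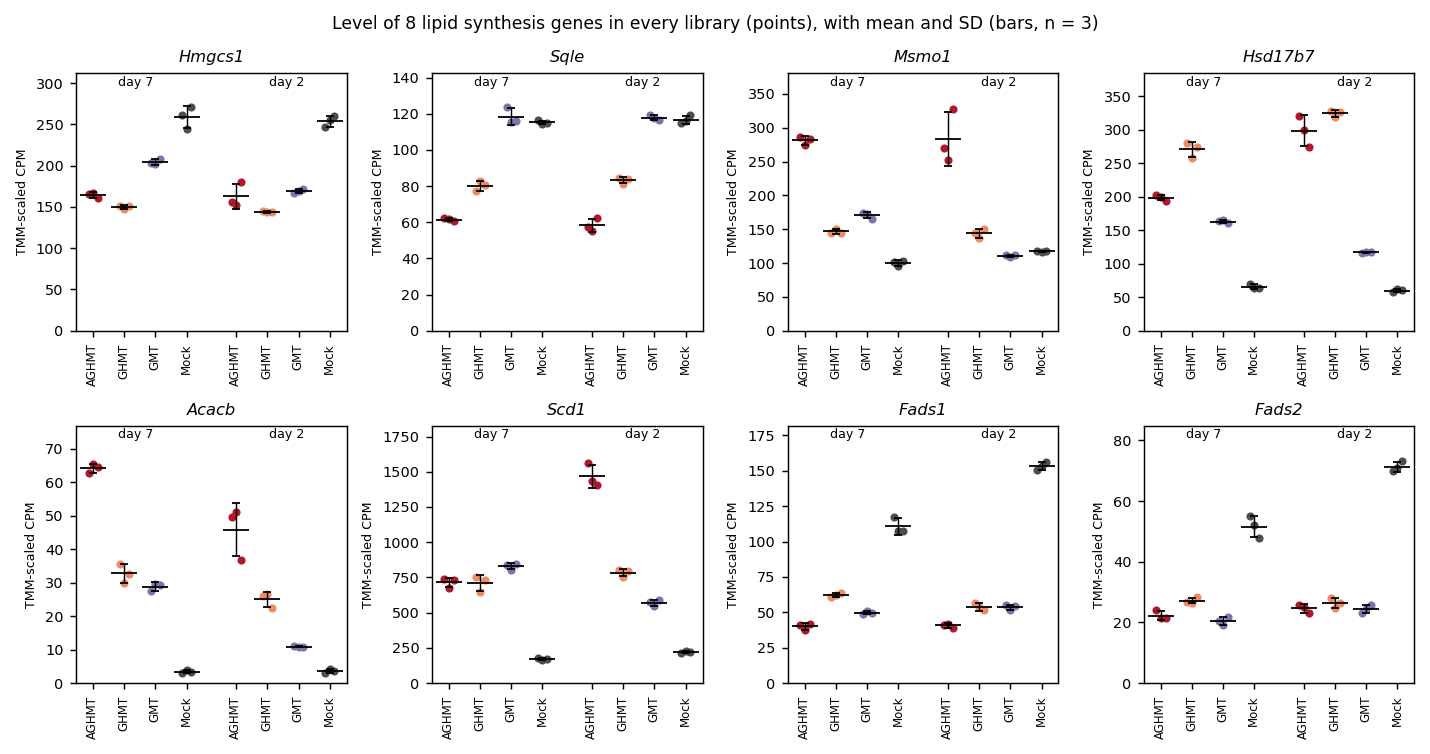
TMM-scaled CPM of 8 genes in every library (points), with the mean and SD of each group of 3 (bars), for AGHMT, GHMT, GMT and mock. Sqle is lowest with AGHMT on both days, Hsd17b7 and Acacb are lowest in mock, and Fads1 and Fads2 are highest in mock.

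The late steps from lanosterol to cholesterol moved in both directions with AGHMT and GHMT. Of these 8 genes, 3 were higher and 3 lower in AGHMT, 4 higher and 2 lower in GHMT, and 6 higher and 1 lower in GMT at day 7. At day 2 the counts were 3 and 3 in AGHMT, 4 and 3 in GHMT, and 3 and 3 in GMT. Over these 6 comparisons 33.9% to 38.6% of all genes were higher and 33.1% to 38.1% lower. Except for GMT at day 7, the counts of these 8 genes are near those shares. Hsd17b7, the keto-reductase that acts while the methyl groups of lanosterol are removed, and which also reduces estrone to estradiol, was the sterol gene with the greatest increase. It lies at chr1:169949535-169969241, on the minus strand, downstream of the promoter printed above. Libraries of day 7 held 202, 199 and 194 CPM in AGHMT, 279.8, 258 and 274 in GHMT, 163, 164 and 160.5 in GMT, and 69.8, 63.2 and 64.4 in mock. Libraries of day 2 held 321, 299 and 275 CPM in AGHMT, 328, 318 and 326 in GHMT, 117, 117 and 117 in GMT, and 57.0, 62.2 and 60.2 in mock. Each cocktail library stood above every mock library of its day, GHMT highest at day 7, and AGHMT and GHMT well above GMT at day 2. On the log2 scale the fold changes were 1.59 ± 0.05 (AGHMT), 2.04 ± 0.05 (GHMT) and 1.31 ± 0.05 (GMT) at day 7 and 2.32 ± 0.05 (AGHMT), 2.44 ± 0.05 (GHMT) and 0.97 ± 0.05 (GMT) at day 2, so that GHMT at day 2 was 5.42-fold higher than mock (adjusted p = 9.65e-23).

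Msmo1, the oxidase that starts the removal of those methyl groups, lies at chr8:64718139-64733792 and was highest with AGHMT. It stood at 287, 274 and 283 CPM in AGHMT, 145, 151 and 145 in GHMT, 173, 173 and 165 in GMT, and 102, 95.5 and 103 in mock at day 7. The day 2 values were 270.2, 252 and 328 CPM in AGHMT, 144, 137 and 150.4 in GHMT, 112, 109 and 111 in GMT, and 118, 117 and 118 in mock. AGHMT libraries lay above all others on both days. The log2 fold changes against mock were 1.49 ± 0.06 (AGHMT), 0.55 ± 0.06 (GHMT) and 0.77 ± 0.06 (GMT) at day 7 and 1.27 ± 0.06 (AGHMT), 0.29 ± 0.06 (GHMT) and -0.09 ± 0.06 (GMT) at day 2, where GMT did not pass (adjusted p = 0.228). Without AGHMT replicate 3, at 328 CPM the highest of its group, the AGHMT value at day 2 was 1.16.

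Dhcr7, at chr7:143823145-143848410, encodes the reductase that completes cholesterol and fell with every cocktail. The day 7 values were 21.4, 19.1 and 19.3 CPM in AGHMT, 17.4, 16.8 and 17.5 in GHMT, 19.4, 19.9 and 20.04 in GMT, and 37.4, 37.2 and 35.6 in mock. Day 2 gave 23.9, 20.5 and 21.7 CPM in AGHMT, 17.9, 16.6 and 16.9 in GHMT, 19.8, 20.5 and 22.7 in GMT, and 28.5, 33.7 and 31.1 in mock. No cocktail library reached a mock library. Log2 fold changes over mock were -0.88 ± 0.07 (AGHMT), -1.09 ± 0.07 (GHMT) and -0.89 ± 0.06 (GMT) at day 7 and -0.49 ± 0.06 (AGHMT), -0.86 ± 0.07 (GHMT) and -0.57 ± 0.06 (GMT) at day 2.

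The other late genes moved less or in both directions. Cyp51, the lanosterol demethylase, fell in AGHMT and GHMT on both days (-0.36 and -0.22 at day 7, -0.58 and -0.42 at day 2) and rose in GMT at day 7 (0.41); its GMT value at day 2 was -0.12 (adjusted p = 0.0330, 0.0563 with DESeq2, 0.250 with no filter, and 0.0564 to 0.107 without mock replicate 2 or 3 or any 1 of the GMT replicates). Nsdhl, a decarboxylating dehydrogenase, rose in AGHMT at day 7 (0.46) and fell in GHMT at day 2 (-0.45). Tm7sf2, a sterol reductase, rose with AGHMT, GHMT and GMT at day 2 (0.78, 0.45 and 0.43) and passed at no mock comparison of day 7. Without AGHMT replicate 3 its AGHMT value at day 2 was 0.64. Of the Tm7sf2 exons 12.1% are shared with Vps51. Ebp, the sterol isomerase, rose in GHMT and GMT on both days, by 0.25 to 0.43, and was lower in AGHMT at day 7 (-0.22, adjusted p = 0.0420, and 0.0801 with DESeq2). The day 7 calls of Ebp are weak: that of GHMT was lost without mock replicate 3, GHMT replicate 2 or GHMT replicate 3 (adjusted p = 0.0585 to 0.0747), that of GMT without mock replicate 3 (0.0544), and that of AGHMT without AGHMT replicate 2 or 3 or mock replicate 1 or 2 (0.0618 to 0.199). Sc5d, the lathosterol oxidase, rose in GHMT (0.32) and GMT (0.66) at day 7 and fell in AGHMT at day 2 (-0.25).

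Of the regulators, Srebf2 was higher while Insig1, itself an SREBP target gene, was lower in AGHMT. Srebf2, at chr15:82147181-82205379, had 259.6, 244 and 239 CPM in AGHMT, 206, 196 and 205 in GHMT, 265, 259 and 267 in GMT, and 206, 189.9 and 182 in mock at day 7. Its day 2 values were 473, 440.0 and 372 CPM in AGHMT, 267, 258 and 251 in GHMT, 246, 233 and 245 in GMT, and 224, 234 and 225 in mock. AGHMT at day 2 stood above every other group in each of its libraries, and its replicate 3, at 372 CPM, was the lowest of the 3; without it the AGHMT value was 1.01. The fold changes (log2) were 0.36 ± 0.06 (AGHMT), 0.07 ± 0.06 (GHMT) and 0.45 ± 0.06 (GMT) at day 7 and 0.91 ± 0.06 (AGHMT), 0.18 ± 0.06 (GHMT) and 0.08 ± 0.06 (GMT) at day 2; GHMT at day 7 (adjusted p = 0.311) and GMT at day 2 (adjusted p = 0.243) did not pass. Insig1 fell in AGHMT by 0.55 at day 7 and 0.98 at day 2, in GHMT by 0.65 and 0.62, and in GMT by 0.31 at day 2. Its GMT value at day 7 was 0.06 ± 0.05, which did not pass. Stard4, a carrier that moves cholesterol between membranes, fell in AGHMT on both days (-0.41 and -0.81) and in GHMT and GMT at day 2 (-0.37 and -0.59).

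In the fatty acid arm the supply genes changed by under 1 on the log2 scale. Acly, which splits citrate into cytosolic acetyl-CoA, fell by 0.13 to 0.31 on the log2 scale over the 6 mock comparisons. Its call was lost in AGHMT at day 2 with only the compared libraries fitted (adjusted p = 0.0712) and in GMT at day 7 without mock replicate 1 (adjusted p = 0.0781). Me1, the malic enzyme that makes NADPH, rose in AGHMT on both days (0.85 ± 0.04 and 0.53 ± 0.04) and in GHMT at day 7 (0.28), and fell in GHMT and GMT at day 2 (-0.36 and -0.46).

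The acetyl-CoA carboxylases moved in opposite directions. Acacb, the mitochondrial form at chr5:114146535-114250761 that is abundant in heart and muscle, showed the greatest fold change over mock of the 32 genes. Day 7 gave 62.7, 65.4 and 64.5 CPM in AGHMT, 35.6, 30.0 and 32.6 in GHMT, 27.5, 29.7 and 29.4 in GMT, and 2.90, 3.77 and 3.27 in mock. On day 2 there were 49.6, 51.0 and 36.6 CPM in AGHMT, 26.0, 26.7 and 22.4 in GHMT, 10.9, 10.8 and 10.7 in GMT, and 2.94, 4.17 and 3.74 in mock. Mock libraries stayed under 5 CPM on both days, every cocktail library was above 10, and AGHMT libraries were the highest. The log2 fold changes were 4.28 ± 0.12 (AGHMT), 3.31 ± 0.13 (GHMT) and 3.12 ± 0.13 (GMT) at day 7 and 3.65 ± 0.12 (AGHMT), 2.78 ± 0.13 (GHMT) and 1.57 ± 0.14 (GMT) at day 2, that is 19.4-fold in AGHMT at day 7 (adjusted p = 2.92e-20). In AGHMT at day 2 it was 3.80 without replicate 3.

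Acaca, the cytosolic form that feeds fatty acid synthase, lies at chr11:84129672-84401651 and fell. On day 7 there were 62.0, 61.2 and 64.6 CPM in AGHMT, 51.3, 42.4 and 50.3 in GHMT, 58.4, 59.8 and 64.3 in GMT, and 76.0, 77.5 and 76.5 in mock. At day 2 it had 78.03, 70.5 and 52.5 CPM in AGHMT, 51.7, 49.6 and 42.5 in GHMT, 65.4, 64.5 and 68.9 in GMT, and 91.0, 86.7 and 88.0 in mock. All cocktail libraries lay below the mock libraries of their day. Its log2 fold changes were -0.29 ± 0.09 (AGHMT), -0.68 ± 0.09 (GHMT) and -0.33 ± 0.09 (GMT) at day 7 and -0.40 ± 0.09 (AGHMT), -0.88 ± 0.09 (GHMT) and -0.42 ± 0.09 (GMT) at day 2; without AGHMT replicate 3 the value at day 2 was -0.25. Per kilobase, Acacb stood at 6.67 ± 0.142 and Acaca at 3.67 ± 0.105 RPKM with AGHMT at day 7, against 0.344 ± 0.0455 and 4.49 ± 0.0430 RPKM in mock. Acacb was also above Acaca with GHMT at day 7, at 3.40 ± 0.286 and 2.81 ± 0.284 RPKM, and on average with AGHMT at day 2, at 4.75 ± 0.823 and 3.93 ± 0.767 RPKM. RPKM divides by all annotated exons of a gene, 17074 bases for Acaca and 9632 for Acacb, so these orders depend on those lengths. In CPM, Acaca was above Acacb in every library of GHMT at day 7 and of AGHMT at day 2. With AGHMT at day 7 their CPM ranges overlapped.

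Fasn, fatty acid synthase, fell at day 2 in AGHMT (-0.68 ± 0.10) and GHMT (-0.66 ± 0.10) and passed in no other mock comparison. AGHMT replicate 3 of day 2 held 148 CPM of Fasn, against 239 and 226 in the other two, and without it the AGHMT value was -0.49.

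**Figure D3:**
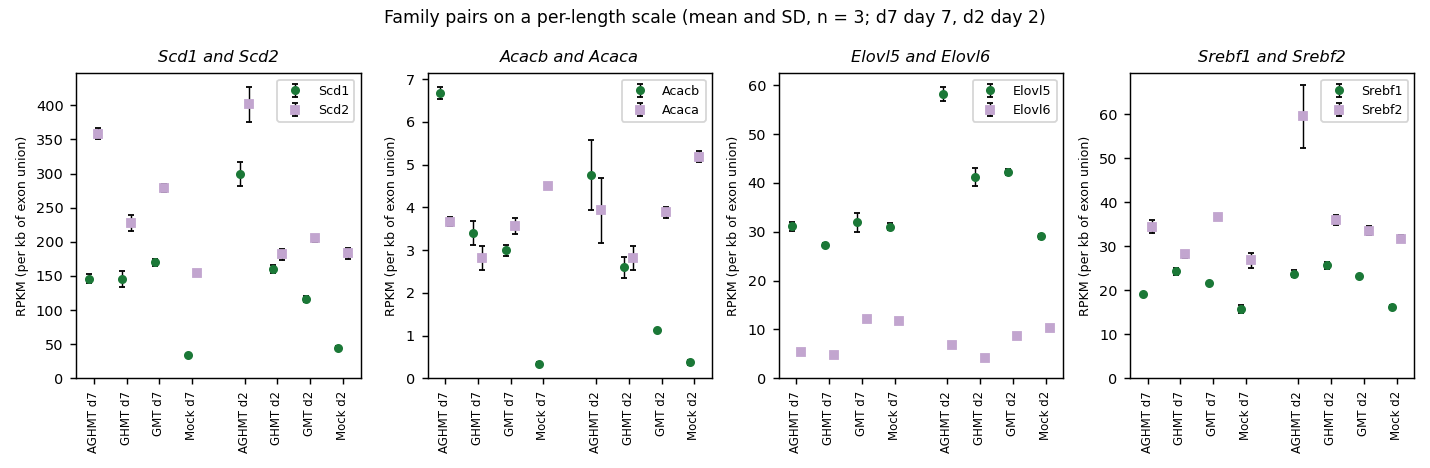
Mean and SD (n = 3 libraries) of RPKM for 4 pairs of related genes in each group, for AGHMT, GHMT, GMT and mock at day 7 and day 2. The mean of Acacb stands above that of Acaca with AGHMT on both days and with GHMT at day 7, and far below it in mock, and Scd2 stands above Scd1 in every group. RPKM divides by all annotated exons of a gene, and in CPM Acaca was above Acacb with GHMT at day 7 and AGHMT at day 2.

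Of the elongases, Elovl6, which extends palmitate to stearate, lies at chr3:129532355-129638495 and was low with the Hand2 cocktails. At day 7 it had 33.3, 35.8 and 35.1 CPM in AGHMT, 31.2, 29.7 and 31.6 in GHMT, 74.2, 78.2 and 80.2 in GMT, and 73.7, 75.3 and 76.1 in mock. Libraries of day 2 held 44.4, 45.8 and 39.6 CPM in AGHMT, 28.4, 28.4 and 25.4 in GHMT, 55.4, 55.0 and 57.7 in GMT, and 64.6, 65.5 and 69.6 in mock. GMT libraries overlapped the mock range at day 7 and lay just below it at day 2, while AGHMT and GHMT libraries were far below on both days. Against mock the log2 fold changes were -1.11 ± 0.05 (AGHMT), -1.28 ± 0.05 (GHMT) and 0.05 ± 0.05 (GMT) at day 7 and -0.62 ± 0.05 (AGHMT), -1.28 ± 0.05 (GHMT) and -0.25 ± 0.05 (GMT) at day 2, and the GMT value at day 7 did not pass (adjusted p = 0.414).

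Elovl5, the elongase of polyunsaturated chains at chr9:77917364-77984519, was higher at day 2. It had 110.1, 106 and 112 CPM in AGHMT, 98.0, 95.1 and 96.4 in GHMT, 109, 108 and 121 in GMT, and 110.2, 106 and 111 in mock at day 7. The day 2 values were 208, 199 and 208 CPM in AGHMT, 153, 143 and 140.2 in GHMT, 149.7, 146 and 150.5 in GMT, and 101, 101 and 105 in mock. All day 2 cocktail libraries lay above mock, with AGHMT highest, and at day 7 AGHMT and GMT overlapped mock. On the log2 scale the fold changes were 0.00 ± 0.04 (AGHMT), -0.18 ± 0.04 (GHMT) and 0.04 ± 0.04 (GMT) at day 7, where of the 3 values GHMT passed (adjusted p = 8.11e-04), and 1.003 ± 0.04 (AGHMT), 0.51 ± 0.04 (GHMT) and 0.54 ± 0.04 (GMT) at day 2. The day 7 value minus the day 2 value was -0.999 ± 0.06 for AGHMT, -0.68 ± 0.06 for GHMT and -0.50 ± 0.06 for GMT, and each passed.

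The desaturases split by the bond they make. Scd1 and Scd2 are stearoyl-CoA desaturases, which put the first double bond into saturated chains, and both lie on chromosome 19. Scd1, at chr19:44394455-44407879, had 735, 677 and 733 CPM in AGHMT, 753, 647 and 733 in GHMT, 839, 805 and 847 in GMT, and 178, 166 and 168 in mock at day 7. Day 2 gave 1562, 1434 and 1403 CPM in AGHMT, 805, 753 and 796 in GHMT, 572, 545 and 591 in GMT, and 212, 227 and 224 in mock. Every cocktail library stood above every mock library, the 3 cocktails lay close together at day 7, and AGHMT led at day 2. Log2 fold changes over mock were 2.07 ± 0.06 (AGHMT), 2.06 ± 0.06 (GHMT) and 2.28 ± 0.06 (GMT) at day 7 and 2.73 ± 0.06 (AGHMT), 1.83 ± 0.06 (GHMT) and 1.37 ± 0.06 (GMT) at day 2, that is 6.64-fold for AGHMT at day 2 (adjusted p = 6.21e-23).

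Scd2, the form that predominates in embryos and brain of mice, lies at chr19:44293674-44306864. It had 2004, 1913 and 1959 CPM in AGHMT, 1280.3, 1171 and 1278 in GHMT, 1552, 1489 and 1525 in GMT, and 856, 836 and 826 in mock at day 7. On day 2 there were 2342, 2179 and 2059 CPM in AGHMT, 1035, 949 and 998 in GHMT, 1112, 1100.1 and 1153 in GMT, and 956, 1002 and 1046 in mock. All cocktails exceeded mock at day 7; at day 2 AGHMT stood well above mock, GMT just above it, and GHMT overlapped it. The fold changes (log2) were 1.22 ± 0.05 (AGHMT), 0.57 ± 0.05 (GHMT) and 0.86 ± 0.05 (GMT) at day 7 and 1.13 ± 0.05 (AGHMT), -0.01 ± 0.05 (GHMT) and 0.16 ± 0.05 (GMT) at day 2, and GHMT at day 2 did not pass (adjusted p = 0.865). Per kilobase, AGHMT cells of day 2 held 401 ± 26.0 RPKM of Scd2 and 299.8 ± 17.2 of Scd1, against 183 ± 8.22 and 45.1 ± 1.54 in mock.

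Fads1 and Fads2, the front-end desaturases that make long polyunsaturated fatty acids, lie near each other on chromosome 19 and fell together. Fads1, at chr19:10182888-10196877, had 41.3, 37.3 and 41.8 CPM in AGHMT, 61.1, 62.3 and 63.9 in GHMT, 48.6, 51.2 and 49.6 in GMT, and 117, 107 and 107 in mock at day 7. At day 2 it had 41.3, 41.9 and 38.9 CPM in AGHMT, 56.9, 53.5 and 51.3 in GHMT, 54.9, 51.7 and 54.5 in GMT, and 150.2, 153 and 156 in mock. Its cocktail libraries all lay below mock, and AGHMT was lowest on both days. The log2 fold changes were -1.46 ± 0.05 (AGHMT), -0.83 ± 0.05 (GHMT) and -1.15 ± 0.05 (GMT) at day 7 and -1.91 ± 0.05 (AGHMT), -1.51 ± 0.05 (GHMT) and -1.51 ± 0.05 (GMT) at day 2, so that AGHMT at day 2 was 3.77-fold lower (adjusted p = 4.28e-21).

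Fads2, at chr19:10062765-10101746, had 23.9, 21.3 and 21.4 CPM in AGHMT, 26.9, 26.4 and 28.3 in GHMT, 20.5, 19.2 and 21.9 in GMT, and 54.9, 51.9 and 47.9 in mock at day 7. Libraries of day 2 held 25.9, 25.1 and 23.002 CPM in AGHMT, 28.0, 24.6 and 26.3 in GHMT, 23.1, 24.6 and 25.7 in GMT, and 69.9, 70.8 and 73.1 in mock. The cocktails lay between 19 and 29 CPM on both days, all below mock. Its log2 fold changes were -1.21 ± 0.06 (AGHMT), -0.92 ± 0.06 (GHMT) and -1.33 ± 0.06 (GMT) at day 7 and -1.53 ± 0.06 (AGHMT), -1.44 ± 0.06 (GHMT) and -1.54 ± 0.06 (GMT) at day 2.

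Srebf1, at chr11:60199089-60222581, rose with every cocktail. Libraries of day 7 held 107, 108 and 108 CPM in AGHMT, 136, 133 and 142 in GHMT, 122, 122 and 121 in GMT, and 94.3, 86.7 and 84.2 in mock. The day 2 values were 135, 129 and 138 CPM in AGHMT, 149, 139 and 146 in GHMT, 131, 129 and 131 in GMT, and 89.1, 93.4 and 92.8 in mock. GHMT was highest on average and no cocktail library fell into the mock range. Against mock the log2 fold changes were 0.29 ± 0.04 (AGHMT), 0.63 ± 0.04 (GHMT) and 0.46 ± 0.04 (GMT) at day 7 and 0.55 ± 0.04 (AGHMT), 0.66 ± 0.04 (GHMT) and 0.51 ± 0.04 (GMT) at day 2. The table counts whole genes, so the isoforms of Srebf1 are read together.

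With Hand2 added to GMT, most of the sterol arm was lower at day 7. Of the 5 factor genes (Gata4, Mef2c, Tbx5, Hand2 and Akt1), 4 were higher with GHMT than with GMT at day 7 and 5 at day 2. Added Hand2 and the changed levels of the others cannot be told apart. In GHMT against GMT, 15 of the 20 sterol genes were lower and 1 higher, beside 18.7% of all genes higher and 18.8% lower (37.5% together), with a median log2 fold change of -0.31. The lower genes included Insig1 (-0.71 ± 0.05), Cyp51 (-0.63 ± 0.05), Sqle (-0.56 ± 0.04), Idi1 (-0.55 ± 0.09), Mvd (-0.46 ± 0.07) and Hmgcs1 (-0.45 ± 0.05), and also Srebf2 (-0.38 ± 0.06). Hsd17b7 was the higher gene (0.73 ± 0.05), and Pmvk, Lss, Ebp and Stard4 did not pass. With any 1 library left out, 12 to 14 genes were lower. At day 2 the same contrast had 7 lower and 4 higher, beside 23.1% of all genes higher and 21.7% lower (44.8% together), with a median of -0.07; Hsd17b7 rose by 1.47 ± 0.05 and Idi1 was at -0.73 ± 0.08.

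In the fatty acid arm GHMT against GMT gave 6 lower and 4 higher at day 7 (median -0.14), and 4 and 3 at day 2 (median -0.01). Beside them, 18.8% of all genes were lower and 18.7% higher at day 7, and 21.7% and 23.1% at day 2. The day 2 counts are near those shares. Elovl6 was the gene of greatest change at day 7, at -1.33 ± 0.05 (adjusted p = 2.30e-16) and -1.03 ± 0.06 at day 2. Acacb rose at day 2 (1.21 ± 0.11), while its day 7 value was 0.18 ± 0.10 (95% interval -0.02 to 0.38, not passing). Fads1 and Fads2 rose at day 7 (0.33 and 0.40) and did not pass at day 2.

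With Akt1 added to GHMT, sterol genes moved in both directions and more fatty acid genes were higher than lower. AGHMT against GHMT had 9 sterol genes higher and 6 lower at day 7 (median 0.05), beside 25.0% of all genes higher and 23.6% lower (48.7% together), and 9 and 7 at day 2 (median 0.13), beside 25.7% of all genes higher and 27.0% lower (52.7% together). The day 2 count was 5 higher and 7 lower without AGHMT replicate 3, had 4 lower without AGHMT replicate 2, and was 4 higher and 3 lower when only the 6 compared libraries were fitted. In the fatty acid arm 6 were higher and 3 lower at day 7 (median 0.09), and 8 and 2 at day 2 (median 0.49), or 9 and 2 without replicate 3; without AGHMT replicate 1 or 2, or GHMT replicate 1 or 3, of day 2 the lower count was 1. All 10 macrophage markers were lower with AGHMT than with GHMT at day 2 (median -1.28), and their part in these counts was not tested. Of the 5 factor genes, 2 were higher and 3 lower with AGHMT than with GHMT at day 7, and 1 higher and 4 lower at day 2. Added Akt1 and the changed levels of the other factors therefore cannot be told apart.

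The genes that rose on both days with AGHMT over GHMT included Msmo1 (0.94 ± 0.06 at day 7 and 0.98 ± 0.06 at day 2), Acacb (0.97 ± 0.09 and 0.87 ± 0.10), Scd2 (0.66 ± 0.05 and 1.14 ± 0.05), Me1 (0.57 ± 0.04 and 0.89 ± 0.04) and Srebf2 (0.29 ± 0.06 and 0.73 ± 0.06). Scd1 rose at day 2 (0.90 ± 0.05), and at day 7 its value was 0.01 ± 0.05, with a 95% interval of -0.10 to 0.12. Sqle (-0.38 ± 0.04 and -0.51 ± 0.04), Stard4 (-0.33 ± 0.06 and -0.44 ± 0.06) and Fads1 (-0.64 ± 0.05 and -0.41 ± 0.05) fell on both days. Insig1 fell at day 2 (-0.36 ± 0.06) and did not pass at day 7.

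**Figure D4:**
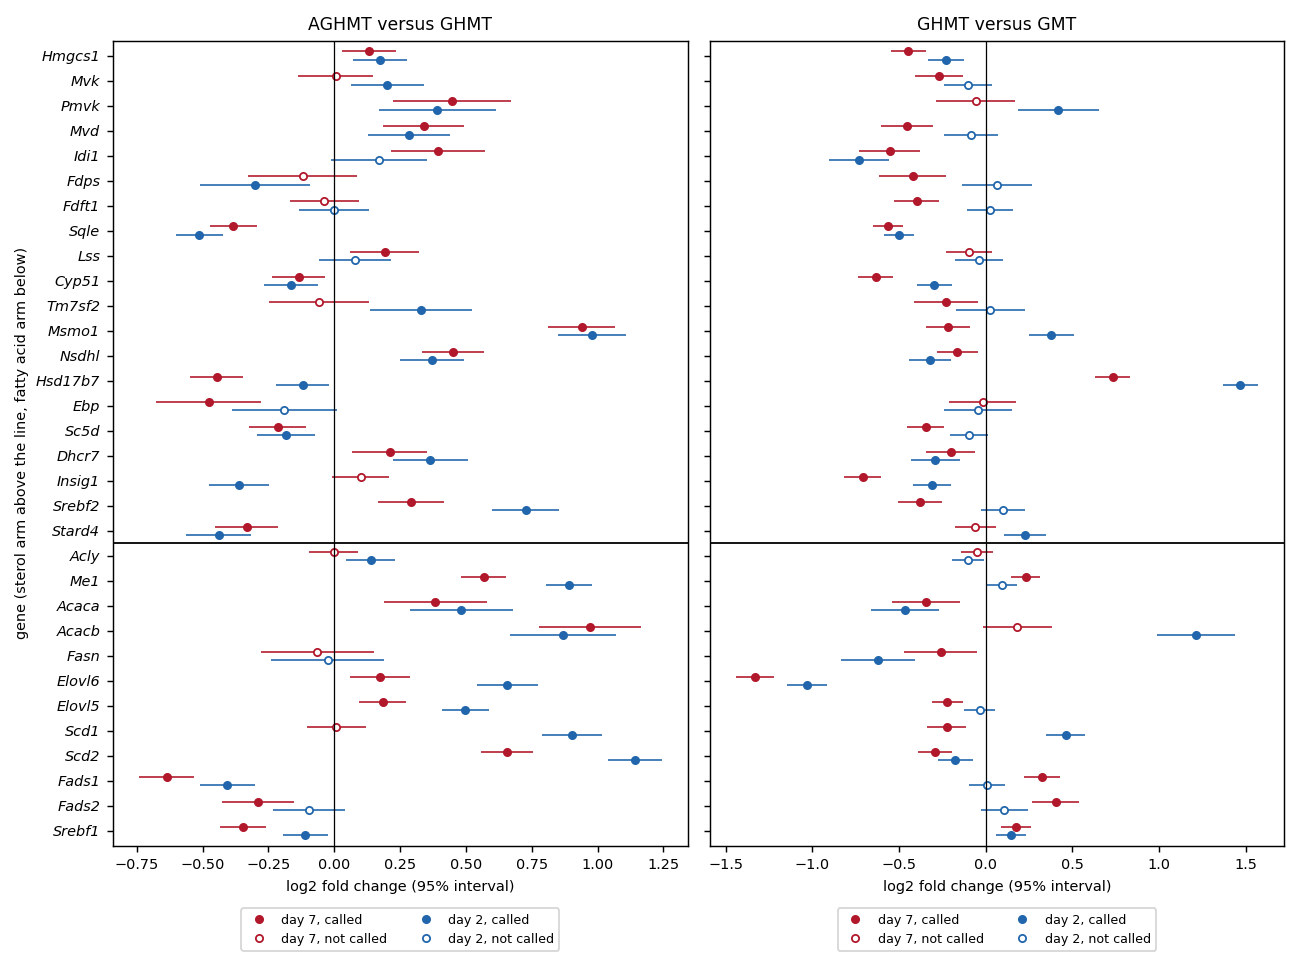
Log2 fold changes with 95% intervals of the 32 genes for AGHMT over GHMT (left) and GHMT over GMT (right), at day 7 (red) and day 2 (blue); filled points passed at an adjusted p under 0.05. On the right most sterol genes lie left of 0 at day 7 and Hsd17b7 lies right of it; on the left Msmo1, Acacb, Scd2 and Me1 lie right of 0 on both days.

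Mock cells also differed between the days. Against mock at day 2, mock at day 7 had 5 sterol genes higher and 6 lower (median 0.01) and 1 and 4 fatty acid genes (median -0.09), beside 29.7% of all genes higher and 25.8% lower (55.5% together); without replicate 1 of either day 3 sterol genes were higher. Tm7sf2 rose (0.76 ± 0.10), and Fads1 (-0.47 ± 0.05), Fads2 (-0.47 ± 0.06), Scd1 (-0.37 ± 0.06) and Lss (-0.37 ± 0.06) fell. All cocktail-to-mock values are relative to these mock levels of their own day.

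The response to GMT differed between the days in most of the sterol arm. The difference tested is the log2 fold change over mock at day 7 minus that at day 2. For GMT it was positive in 14 of 20 sterol genes and negative in 2 (median 0.35), and positive in 7 and negative in 1 of 12 fatty acid genes (median 0.26), beside 24.3% of all genes higher and 25.3% lower (49.5% together). The 2 negative sterol genes were Idi1 and Dhcr7, and 1 was negative without mock replicate 1 of day 7, mock replicate 1 or 2 of day 2, GMT replicate 1 or 2 of day 7, or GMT replicate 2 or 3 of day 2. This comparison shares the GMT libraries of day 7 with GHMT against GMT above. For GHMT the sterol counts were 7 and 4 (median -0.03) and the fatty acid counts 7 and 1 (median 0.37), beside 23.3% of all genes higher and 26.0% lower (49.3% together). For AGHMT they were 9 and 6 (median 0.10), and 5 and 4 (median 0.10), beside 24.8% of all genes higher and 26.1% lower (50.9% together). Without AGHMT replicate 3 of day 2 the AGHMT counts were 11 and 6 in the sterol arm and 5 and 4 in the fatty acid arm. Lss had a positive difference with every cocktail (0.91 ± 0.09 in AGHMT, 0.80 ± 0.09 in GHMT and 0.85 ± 0.09 in GMT), as did Acacb (0.62 ± 0.19, 0.52 ± 0.19 and 1.55 ± 0.20).

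Other genes around the 2 arms were read from lists. The 15 further genes of fatty acid synthesis were mostly higher: against mock at day 7, 12 were higher and 0 lower in AGHMT, 10 and 1 in GHMT, and 11 and 2 in GMT, and at day 2 the counts were 11 and 1, 10 and 1, and 9 and 3. These counts stand beside 33.9% to 38.6% of all genes higher and 33.1% to 38.1% lower over the 6 comparisons. Their median log2 fold changes lay between 0.31 and 0.74. The gene lower in AGHMT at day 2 was Fads3 (-1.44 ± 0.04). Unlike Fads1 and Fads2, Fads3 was higher at day 7 in GHMT (1.41 ± 0.04) and GMT (0.98 ± 0.04). Its AGHMT value at day 7 minus that at day 2 was 2.21 ± 0.06. Hacd3, a dehydratase of the elongation cycle, averaged 440.5 ± 24.2 CPM with AGHMT, 273 ± 11.5 with GHMT and 249 ± 3.90 with GMT, against 50.7 ± 1.97 in mock at day 2. That gave log2 fold changes of 3.12 ± 0.05 (AGHMT), 2.43 ± 0.04 (GHMT) and 2.29 ± 0.04 (GMT). Elovl7, another elongase, was highest with GMT, at 16.96 ± 0.508 CPM against 0.902 ± 0.269 in mock at day 2 (4.23 ± 0.14).

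Of the 7 LXR and sterol efflux genes, 2 were higher and 4 lower in AGHMT, 3 and 4 in GHMT, and 3 and 3 in GMT at day 7, and 4 higher and 2 lower in each cocktail at day 2. Beside the shares of all genes given above, these counts are near the background at day 7. Abcg1, an exporter of sterols, averaged 33.1 ± 1.22 CPM with AGHMT, 61.1 ± 2.99 with GHMT and 52.9 ± 0.905 with GMT, against 2.69 ± 0.380 in mock at day 7. Its log2 fold changes were 3.61 ± 0.08 (AGHMT), 4.50 ± 0.08 (GHMT) and 4.29 ± 0.08 (GMT) at day 7 and 1.77 ± 0.07 (AGHMT), 1.599 ± 0.07 (GHMT) and 1.51 ± 0.07 (GMT) at day 2. Abca1, another sterol exporter, went the other way at day 7, with the lowest values of the list in AGHMT (-1.33) and GHMT (-1.28). It rose with GMT at day 2 (1.52 ± 0.10), and in mock it rose between the days (1.77 ± 0.10). The whole list summed to 313 to 317 CPM with AGHMT and 490 to 509 in mock at day 7. Nr1h3, which encodes LXR alpha, averaged 6.99 ± 0.232, 7.32 ± 0.797 and 14.6 ± 0.555 CPM with AGHMT, GHMT and GMT, against 2.10 ± 0.129 in mock at day 7. That is 1.73 ± 0.10 (AGHMT), 1.80 ± 0.10 (GHMT) and 2.79 ± 0.09 (GMT) on the log2 scale. Mylip, a ubiquitin ligase that LXR induces, fell at day 7 in AGHMT, GHMT and GMT (-1.06, -1.13 and -1.19). At day 2 it rose in AGHMT (0.19) and GHMT (0.45) and fell in GMT (-0.73), and in mock it rose between the days (0.55).

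Of the 8 genes that process SREBP, 2 were higher and 6 lower in AGHMT, 2 and 3 in GHMT, and 4 and 3 in GMT at day 7, and 2 and 5, 4 and 4, and 4 and 2 at day 2. Erlin1, which restrains SREBP release in the endoplasmic reticulum, fell in AGHMT on both days (-0.90 and -1.23). Of the 7 genes of sterol trafficking and esters, 5 were higher and 1 lower in AGHMT, 4 and 1 in GHMT, and 6 and 1 in GMT at day 7, and 3 and 3, 4 and 2, and 2 and 2 at day 2. Osbp, which exchanges sterols between membranes, rose in all 6, by 0.42 to 0.63. Of the 7 genes of isoprenoid branches, 4 were higher and 1 lower in AGHMT, 2 and 2 in GHMT, and 3 and 2 in GMT at day 7, and 3 and 2, 3 and 3, and 2 and 3 at day 2. Most counts of these 3 lists are near the shares of all genes given above, and nothing is read from them for the lists. Ggps1, which extends farnesyl diphosphate for protein prenylation, had log2 fold changes of 0.50 in AGHMT, 0.36 in GHMT and 0.43 in GMT at day 7.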

How the data were processed

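Total RNA of 24 libraries was sequenced. The authors' deposited table gives whole-number read counts per gene; featureCounts 1.4.6, DESeq2 1.6.3, HISAT2 2.0.1 and Trim Galore 0.4.1 stand, with no roles, in the submitters' processing notes, and neither a strand setting nor the origin of each replicate is given in the sources used here. From these counts edgeR 4.0.16 in R 4.3.3 was fitted to all 24 libraries with 1 mean per group (filterByExpr, TMM scaling, quasi-likelihood F test, 16 residual degrees of freedom, common biological coefficient of variation 5.55%), with Benjamini-Hochberg adjustment over 17576 genes; adjusted p-values are from it unless another tool is named. A gene was called, and rose or fell, at an adjusted p under 0.05. The 14 comparisons were each cocktail with mock by day, GHMT with GMT and AGHMT with GHMT by day, mock between days, and each cocktail's day difference. RPKM used exon lengths of GENCODE M21 (GRCm38), and promoters were RefSeq's. Alternatives were RLE size factors, DESeq2 1.42.0, no filter, the compared libraries alone, each library left out, and a replicate block. The members and lists were chosen with earlier results of these data known. Values in every library are given for the 12 members of greatest fold change against mock with at least 5 CPM in the higher group and for 4 family pairs; of other lists, genes came from the 3 smallest adjusted p-values per comparison. Replicates of a group differed beyond counting noise (lowest chi-square per degree of freedom 1.49). The test was tried on simulated counts. The authors' deposited normalized table was not used here.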

Additional observations from a re-analysis of the deposited data

Results flagged for a closer look

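For every cocktail the fold change over mock differed between day 7 and day 2 in part of each arm, by the test of the difference itself. With GMT the difference passed for 16 sterol and 8 fatty acid genes, with GHMT for 11 and 8, and with AGHMT for 15 and 9, beside 49.5%, 49.3% and 50.9% of all genes; the GHMT sterol count is near that share. The 10 differences given here were chosen after their values were seen.

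With GMT, Fdft1 was 0.27 at day 7 and -0.65 at day 2, a difference of 0.92 ± 0.09 (adjusted p = 4.04e-09). Cyp51 with GMT was 0.41 and -0.12 on the same days, a difference of 0.53 ± 0.07 (adjusted p = 5.45e-07). Nsdhl with GMT was 0.17 and -0.13, a difference of 0.30 ± 0.08 (adjusted p = 0.00289). The day 2 call of Nsdhl was lost with DESeq2, with RLE size factors (adjusted p = 0.0680) and with no filter (0.252). It was also lost without mock replicate 2 or 3, or GMT replicate 1 or 2, of day 2 (0.0958 to 0.200). The day 2 call of Cyp51 was lost with DESeq2, with no filter and without any 1 of 5 libraries. These 3 sterol genes were called higher at day 7 and lower at day 2 in the fit reported. Acacb with GMT was 3.12 and 1.57, a difference of 1.55 ± 0.20 (adjusted p = 4.24e-07), and Scd1 with GMT was 2.28 and 1.37, a difference of 0.92 ± 0.08 (adjusted p = 4.40e-10).

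With GHMT, Me1 was 0.28 at day 7 and -0.36 at day 2, a difference of 0.64 ± 0.06 (adjusted p = 1.64e-09). Elovl5 with GHMT was -0.18 and 0.51, a difference of -0.68 ± 0.06 (adjusted p = 1.35e-09). With AGHMT, Elovl5 was 0.00 and 1.003, a difference of -0.999 ± 0.06 (adjusted p = 1.04e-12). Lss with AGHMT was -0.08 and -0.98, a difference of 0.91 ± 0.09 (adjusted p = 5.67e-09), and Tm7sf2 with AGHMT was -0.14 and 0.78, a difference of -0.92 ± 0.13 (adjusted p = 2.43e-06). Without AGHMT replicate 3 of day 2, the AGHMT values of that day were -0.91 for Lss and 0.64 for Tm7sf2. Mock Tm7sf2 itself rose between the days (0.76 ± 0.10) and mock Lss fell (-0.37 ± 0.06). Macrophage markers also moved in mock, to 350.4 to 508 CPM at day 7 against 48.7 to 49.7 at day 2, and their part in these differences was not tested.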

How the results depend on the processing

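Of 140 arm counts under RLE size factors, DESeq2, no filter, the compared libraries alone and a replicate block, 139 stayed within 1.5 times the reported count. The exception was the sterol arm in AGHMT against GHMT at day 2, with 16 genes passing as reported and 7 with only the compared libraries fitted, a fit of fewer samples. With 1 library left out, every arm count stayed within 1.5 times; that one was 12 to 15, and GHMT against GMT at day 7 was 13 to 15 against 16. Of 192 member values against mock, none reversed in any setting: DESeq2 kept 189 calls, RLE 191, no filter 187, the compared libraries alone 184 and the replicate block 191; with each library left out, 1117 of 1152 held, 28 were lost and 7 gained. The changed calls fell in 14 members, all with log2 fold changes under 0.33 in size. Nsdhl in GMT at day 2 (-0.13 ± 0.06, adjusted p = 0.0446) gave 0.106 with DESeq2, and Ebp in AGHMT at day 7 (-0.22 ± 0.10, adjusted p = 0.0420) gave 0.0801. The Nsdhl call was also lost with RLE size factors, with no filter and in several fits with 1 library left out. Same-numbered libraries showed little shared deviation (correlations -0.213 to 0.274, over 0.1 in 1 of 84 pairs), and 5 of 24 libraries correlated best with their own number. With 3 libraries per group this check cannot exclude that same-numbered libraries share an origin. Under the replicate block the sterol counts were 15 for GHMT against GMT at day 7 and 16 for the GMT day difference. Each library held 29345957 counted reads or more. The lowest members per kilobase in mock at day 2 were Acacb, Tm7sf2 and Fdps, and the effect of depth on them was not tested.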
